A study of Mus musculus with 6 samples.

Results

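The cytosolic ribosomal proteins were followed in whole thymus of miR-181d Tg-38 and wild type (WT) mice, 3 animals per group, on Illumina MouseWG-6 v2 arrays with 1 array per mouse. The members were the genes whose symbol in the platform's probe annotation is Rpl or Rps followed by a digit, or Rpsa, Rplp0, Rplp1 or Rplp2. The S6 kinases and all symbols that contain -ps were left out. This naming rule found 96 probes of 65 genes among the 45281 probes of the array. A probe was kept when its detection p, a comparison of its signal with the negative control beads, was below 0.05 on at least 3 of the 6 arrays. Of the ribosomal protein probes 79 were kept, for 58 genes, out of 18352 probes kept in all for 9782 genes.

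Tg-38 is a single transgenic line in which a VA-hCD2 cassette drives pri-miR-181d in thymocytes and T cells. It was made by injection into C57BL/6 eggs. The study calls the WT mice of the arrays wild type controls, without naming their strain. The methods of the study give an age of 5 to 8 weeks for the mice, and the labels name no treatment in either group. The 6 arrays are samples of separate mice, so the p-values below measure the spread between mice of 1 transgenic line and its wild type controls. RNA came from the whole organ, so a lower share of a cell type and less of a transcript per cell cannot be told apart. All 4 members of the miR-181 family carry the same seed, shown here in capitals (bases 2 to 8 from the 5′ end) because the transgene product, miR-181d-5p, is what separates the groups. The mature sequences are those of RefSeq on GRCm38.p6, with miR-181d-5p at chr8:84178759-84178781 on the minus strand. No probe of these arrays is listed under miR-181d, and target sites were not searched.
mmu-miR-181d-5p: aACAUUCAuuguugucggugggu
mmu-miR-181c-5p: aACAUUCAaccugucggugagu

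A eukaryotic ribosome is built from a small subunit (40S), whose proteins are named Rps, and a large subunit (60S), whose proteins are named Rpl. The P-stalk of Rplp0, Rplp1 and Rplp2 on the large subunit recruits the elongation factors. Each protein is needed in about equal number, and the mRNAs share a terminal oligopyrimidine tract, a cytosine followed by a run of pyrimidines at the 5′ end, through which mTOR and Larp1 control their translation together. In the mouse thymus the best known member is Rpl22, without which αβ T cell development stops early. The mouse genome holds many processed copies of these genes, so a single probe may read more than its named transcript.

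The start of the annotated transcript was read for 54 of the 65 genes from RefSeq promoters of GRCm38.p6, in the direction of the gene. A run was counted when a C followed by at least 4 further C or T letters began within 5 bases of the annotated start. Such a run was found in 25 of the 54 genes (46.3%), against 5718 of 27025 genes of the table (21.2%). Annotated starts can lie several bases from the start that cells use. The absence of a run thus says only that none begins within 5 bases of the annotated start. The windows below span 26 bases, from 8 before the start, with the run in capitals. They are shown because they belong to the members the results turn on. Rps15a (chr7:118116130-118116155, minus strand), Rps6 (chr4:86857350-86857375, minus), Rpl38 (chr11:114668572-114668597, plus), Rpl13a (chr7:45128728-45128753, minus) and Rpl22l1 (chr3:28805500-28805525, plus) hold a counted run. Rpl22 (chr4:152324428-152324453, plus) and Rpl23 (chr11:97782422-97782447, minus) hold no counted run. The Rpl22 window does hold a C followed by 4 pyrimidines, but these letters begin more than 5 bases after the annotated start.
Rps15a: tctgccatCTTCCCTCgccggtgagt
Rps6: agtcgggCCTCTTTTTCgtgacgcct
Rpl38: gcctcgttCTTTCCCCgttctcttcg
Rpl13a: tgcgacaagaCCTCCTCCTTTCCCag
Rpl22l1: gcaagcccgttCTCTTCCCacggctg
Rpl22: tctggaatgttccagctcccactgac
Rpl23: ccggtcacgtggctgagtgggcgggg

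Across all probes, 17972 to 18464 were detected on the Tg-38 arrays and 17674 to 18526 on the WT arrays. Over all 45281 probes the median raw signal was 123.0 to 129.0 in Tg-38 and 129.0 to 140.7 in WT. Tg-38 and WT arrays lay on opposite sides of the first principal component (39.4% of the variance), and WT replicate 2 stood apart on the second (21.7%). Signals were background-corrected and quantile-normalized, and levels below are on that log2 scale. A level belongs to its probe and depends on the probe's sequence, so levels of different probes are not amounts of RNA that can be compared.

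The ribosomal protein probes were bright. They were 38 of the 184 brightest tested probes (20.7%) and 55 of the 1835 brightest (3.0%), although they were 0.43% of the probes tested. Mean raw signals of the tested members ran from 141.2 to 39430. Rplp1, an acidic stalk protein, gave the highest raw signal of a member, 43369.1 on the first WT array, where the highest of any probe on any array was 43498.5. Whether bead signals level off near this upper end was not tested. At the other end, 17 member probes were left out, with mean raw signals of 108.8 to 139.2, and 14 of them were detected on no array. Rpl14, Rpl17, Rpl6, Rpl39l, Rps20, Rps23 and Rps23rg1 had no tested probe. For 8 genes (Rpl23, Rpl27a, Rpl37, Rpl4, Rplp0, Rplp2, Rps24 and Rpsa) an untested probe stood beside a tested one, so an undetected probe here did not mean an undetected transcript. Of the tested members 76 were detected on all 6 arrays. Just inside the threshold were Rpl3l (3 arrays), Rps4l (4 arrays) and Rpsa (5 arrays), and just outside was the dimmest probe of Rpl27a (2 arrays). No probe was listed for Rpl5, Rpl11 or Rps27.

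Tg-38 thymus was then compared with WT thymus, to see whether transgenic miR-181d went with a different output of ribosomal protein mRNA. No member passed the test, and the differences were small and mostly on the positive side. At an adjusted p below 0.05 (limma, adjusted over 18352 probes) 0 of 79 member probes were called, where 1.10% of all probes were (0.801% higher and 0.300% lower in Tg-38). The methods' t-test, adjusted the same way, called 0 members, but it called only 1 of all probes. Its 0 therefore says little about the members. The median log2 fold change of the members was 0.11, a 1.08-fold difference, against -0.01 for all tested probes, and 66 of 79 (83.5%) lay above 0, against 48.7% of all. These signs are relative to all genes: with median scaling in place of quantile normalization the members' median was -0.01 and that of all probes -0.14, and without normalization they were -0.07 and -0.20.

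At an unadjusted p below 0.05, 8 member probes were higher in Tg-38 (10.1%, background 8.55%) and 1 was lower (1.27%, background 8.48%), all by limma. In this fit the higher share was close to that of all probes and the lower share was under it. The methods' t-test gave 15 higher (19.0%, background 7.55%) and 0 lower (background 7.12%). With median scaling the limma counts were 0 higher (background 3.45%) and 2 lower (2.53%, background 17.1%), and without normalization they were 0 (background 2.19%) and 2 (2.53%, background 19.3%). Leaving out 1 array gave 2 to 9 higher and 0 to 1 lower, with the lowest higher count without Tg-38 replicate 2 or 3, and with 3 or 4 without Tg-38 replicate 1, WT replicate 1 or WT replicate 3. In 21 probes (26.6%) every Tg-38 mouse lay above every WT mouse, against 11.4% of all probes, and in 0 every Tg-38 mouse lay below, against 11.2%. This count too depended on the scaling: with median scaling 2 members lay wholly above (2.53%, background 4.04%) and 3 wholly below (3.80%, background 22.7%), and without normalization 0 (background 2.34%) and 5 (6.33%, background 25.5%). With quantile normalization and a level above 12, 14 of 49 members lay wholly above and 0 wholly below, against 105 and 58 of all 665 such probes. The members are not independent of each other, since they share 6 arrays and several probes share a gene, so these counts are a description. The range of the members' log2 fold changes was -0.52 to 0.43. In 75 of 79 probes the whole 95% interval of the difference lay within 1.5-fold in either direction, and in 78 within 2-fold. The exceptions to 1.5-fold were Rpl22l1, Rpl34, Rps13 and Rps15a.

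**Figure D1:**
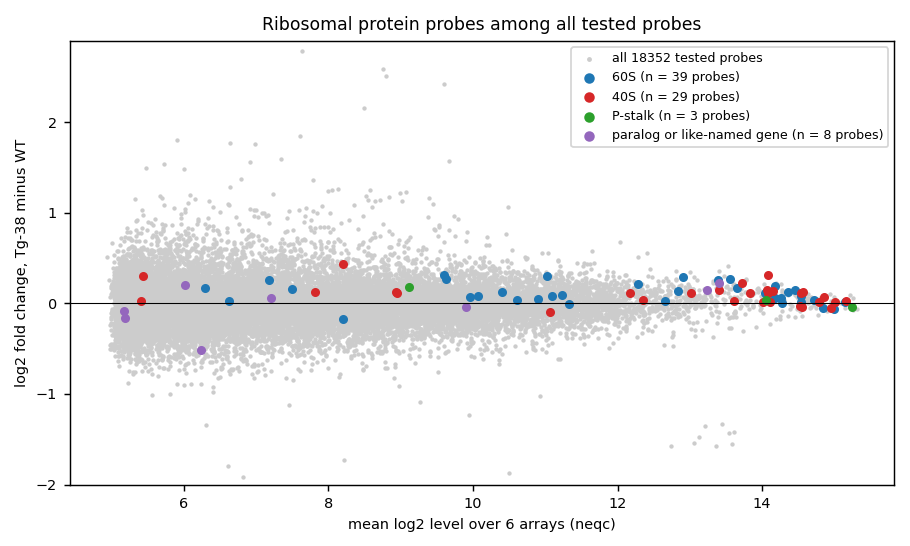
Log2 fold change (Tg-38 minus WT, y axis) against the mean log2 level over the 6 arrays (x axis) for all 18352 tested probes in grey, with the 79 ribosomal protein probes coloured by class. The coloured points lie in a narrow band, from -0.52 to 0.43, and 38 of them are among the 184 brightest probes.

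The 2 subunits gave the same median. The 39 probes of 27 genes of the 60S subunit had a median log2 fold change of 0.11, with 35 above 0, and the 29 probes of 21 genes of the 40S subunit had 0.11, with 25 above 0. The 3 P-stalk probes had a median of 0.04. The 8 probes of 7 paralogs and like-named genes had a median of 0.01, with 4 above 0. Counted once per gene by its brightest probe, the 58 genes had a median of 0.07. The 49 members with a level above 12 had a median of 0.11, where all 665 tested probes above 12 had 0.02 and 58.5% of them lay above 0. The 30 dimmer members had a median of 0.09. With median scaling the 60S and 40S medians were both -0.01, with 18 and 12 probes above 0, and that of the 49 brighter members was 0.00. Without normalization the 60S and 40S medians were both -0.07.

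**Figure D2:**
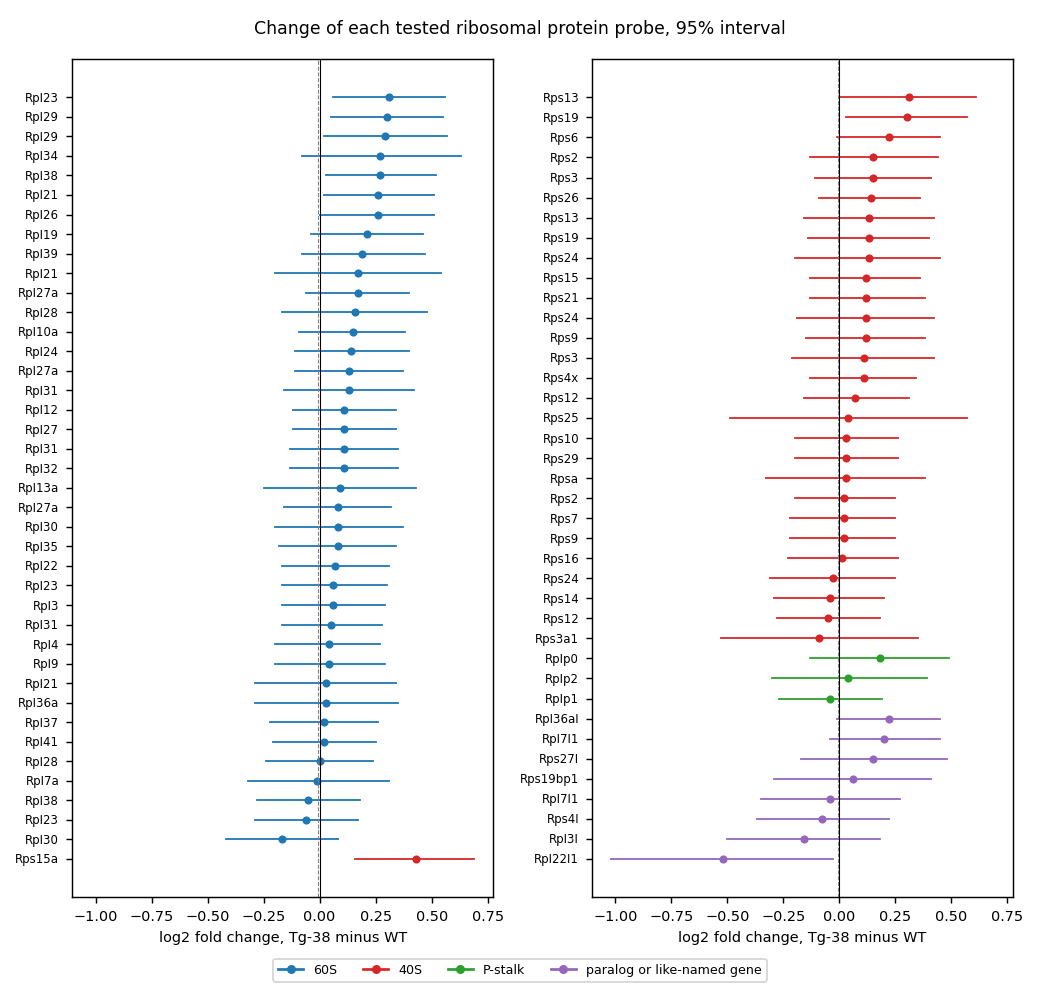
Log2 fold change (Tg-38 minus WT, x axis) of each of the 79 tested ribosomal protein probes, with its 95% interval from the limma fit, coloured by class and sorted within it, and the median of all tested probes as a dashed line. Most points lie right of 0 (66 of 79, but 32 with median scaling and 17 without normalization) while most intervals cross it, Rps15a lies farthest right (0.43) and Rpl22l1 farthest left (-0.52).

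With quantile normalization the shift was seen in each mouse. Taken as the deviation of each probe from its mean over the 6 arrays, the median member stood at 0.04, 0.04 and 0.08 log2 units in the Tg-38 mice, against -0.06, -0.03 and -0.05 in the WT mice. The groups did not overlap. Without Tg-38 replicate 3 the median log2 fold change of the members was 0.06, and without WT replicate 1 it was 0.07. The raw signals ran the other way: 66 of 79 members (83.5%) had a lower mean raw signal in Tg-38, but so did 89.8% of all tested probes, with a median raw log2 ratio of -0.08 for the members and -0.16 for all. As a share of all raw signal, the members took 4.69, 4.90 and 5.12% in Tg-38, against 4.29, 4.73 and 4.53% in WT, and these overlapped. After background correction the shares were 6.30, 6.60 and 6.93% in Tg-38, against 5.57, 6.23 and 6.07% in WT, and did not overlap.

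Among the small subunit proteins, Rps15a had the smallest p of all members. Its log2 level was 8.42, 8.50 and 8.32 in the Tg-38 mice, against 8.12, 7.99 and 7.85 in the WT mice. Every Tg-38 mouse was above every WT mouse, and the means were 8.42 ± 0.09 and 7.99 ± 0.13 (SD, n = 3 each). The log2 fold change was 0.43 (standard error 0.12), or 1.34-fold, with an adjusted p of 0.12 in limma, so it did not pass. With median scaling the value was 0.26 (adjusted p 0.37) and without normalization 0.20 (adjusted p 0.53), and over all alternatives its adjusted p ran from 0.056, without background correction, to 0.53.

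Rps6, the substrate of the S6 kinases, varied little within each group. It stood at 13.81, 13.83 and 13.83 in Tg-38, against 13.61, 13.55 and 13.68 in WT. The log2 fold change was 0.22 (standard error 0.10), with an adjusted p of 0.32 in limma. With median scaling it was 0.07 and without normalization 0.01. Rps13, also of the small subunit, had 14.19, 14.19 and 14.31 in Tg-38, against 13.67, 14.12 and 13.98 in WT, on its brighter probe. The log2 fold change was 0.31 (adjusted p 0.29, limma), and WT replicate 1 was the lowest of the 6. Without that array the value was 0.19, and without normalization it was 0.14.

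Rps19, mutated in human Diamond-Blackfan anaemia, was read by a probe near background and a bright one. The dim probe gave 5.45, 5.58 and 5.75 in Tg-38, against 5.39, 5.26 and 5.24 in WT, a log2 fold change of 0.30. The bright probe gave 14.67, 14.54 and 14.68 in Tg-38, against 14.33, 14.63 and 14.55 in WT, a log2 fold change of 0.13. Only the dim probe separated the groups, and neither passed (adjusted p 0.25 and 0.63, limma). Rpsa, which also serves as the precursor of a laminin receptor, was near background on its only tested probe and had a log2 fold change of 0.03. The small subunit probes with a log2 fold change below 0 were 1 each of Rps3a1 (-0.09), Rps12 (-0.05), Rps14 (-0.04) and Rps24 (-0.03). In all of them the groups overlapped, and Rps12 and Rps24 each had a further probe above 0. Rps14 is the gene of the human 5q- syndrome.

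Among the large subunit proteins, Rpl29 was the member whose probes lay closest in log2 fold change. Its dimmer probe stood at 11.06, 11.26 and 11.20 in Tg-38, against 10.80, 10.92 and 10.90 in WT. Its brighter probe stood at 12.96, 13.04 and 13.18 in Tg-38, against 12.64, 12.93 and 12.73 in WT. Both separated the groups, with log2 fold changes of 0.30 and 0.29 and adjusted p of 0.21 and 0.27 in limma. Rpl26 had 13.43, 13.48 and 13.64 in Tg-38, against 13.18, 13.37 and 13.23 in WT. Its log2 fold change was 0.26 and its adjusted p 0.30 in limma, also without overlap. With median scaling the dimmer Rpl29 probe had 0.12 and Rpl26 had 0.10, and without normalization they had 0.06 and 0.05.

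Besides these members and Rpl36al, probes whose groups did not overlap belonged to Rpl10a, Rpl12, Rpl19, Rpl21, Rpl23, Rpl27, Rpl27a, Rpl3, Rpl38, Rpl39, Rpl7l1, Rps26 and Rps4x. Several of them differed by little: Rpl3 stood at 14.28, 14.25 and 14.34 in Tg-38, against 14.23, 14.23 and 14.23 in WT, a log2 fold change of 0.06. Rps26 stood at 14.23, 14.20 and 14.21 in Tg-38, against 14.07, 14.07 and 14.09 in WT, a log2 fold change of 0.14. A lack of overlap among 3 mice per group thus did not need a large difference. The other way round, Rpl34 had 0.27 with overlap, at 13.55, 13.70 and 13.81 in Tg-38, against 13.14, 13.72 and 13.39 in WT, and its 95% interval was -0.08 to 0.63. Rps25 had the widest standard error of the members (0.23), at 12.25, 12.07 and 12.79 in Tg-38, against 11.98, 12.76 and 12.24 in WT, and a log2 fold change of 0.04. In both genes the lowest Tg-38 mouse lay below the highest WT mouse.

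Rpl22, the large subunit protein required by developing αβ T cells, did not pass the test either. Its log2 level was 10.08, 9.92 and 10 in Tg-38, against 9.85, 9.97 and 9.97 in WT. The groups overlapped, with a log2 fold change of 0.07 and a 95% interval of -0.17 to 0.31 (adjusted p 0.79, limma), and with median scaling the value was -0.12. That interval runs from 0.89-fold to 1.24-fold. Rpl13a, which in human myeloid cells also acts in a complex that silences translation after interferon gamma, had 11.31, 11.27 and 11.24 in Tg-38, against 10.85, 11.36 and 11.36 in WT. The Tg-38 mice lay inside the range of the WT mice, and the log2 fold change was 0.09.

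Rpl22l1 is the paralog of Rpl22, and in the mouse Rpl22 represses it. It was the only member with an unadjusted p below 0.05 on the lower side. Its log2 level was 5.77, 5.69 and 6.47 in Tg-38, against 6.62, 6.69 and 6.20 in WT. The groups overlapped, since Tg-38 replicate 3 was above WT replicate 3, and the spread was wide (SD 0.43 and 0.27). The log2 fold change was -0.52 (standard error 0.22), 1.44-fold lower, with a 95% interval of -1.02 to -0.03 and an adjusted p of 0.27 in limma. Without Tg-38 replicate 3 it was -0.78 and without Tg-38 replicate 2 it was -0.38. With median scaling it was -0.63 (adjusted p 0.14, limma) and without normalization -0.69 (adjusted p 0.093, limma). The signal was low (150.8 to 176.2 in Tg-38 and 175.5 to 234.8 in WT, raw), and the size of the difference depended on how background was handled: it was -0.21 without background correction and -0.36 with an offset of 50.

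Of the other paralogs and like-named genes, Rpl36al, the autosomal copy of X-linked Rpl36a, stood at 13.50, 13.48 and 13.55 in Tg-38, against 13.23, 13.27 and 13.37 in WT. The groups did not overlap and the log2 fold change was 0.22 (adjusted p 0.32, limma), while Rpl36a itself had 0.03. With median scaling Rpl36al had 0.06 and without normalization 0.0. Transcript and probe sequences were not examined, so it is uncertain which copy such a probe reads. Rps27l, a p53-induced relative of Rps27, had a log2 fold change of 0.15. Rps19bp1, a binding partner of Rps19 and no ribosomal protein, had 0.06. Rpl3l, the muscle form of Rpl3, and Rps4l were near background, with -0.16 and -0.08. In the P-stalk, Rplp0 had 9.35, 8.99 and 9.27 in Tg-38, against 8.84, 9.14 and 9.09 in WT. Its log2 fold change was 0.18, that of Rplp1 was -0.04 and that of Rplp2 was 0.04. All these groups overlapped except that of Rpl36al.

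**Figure D3:**
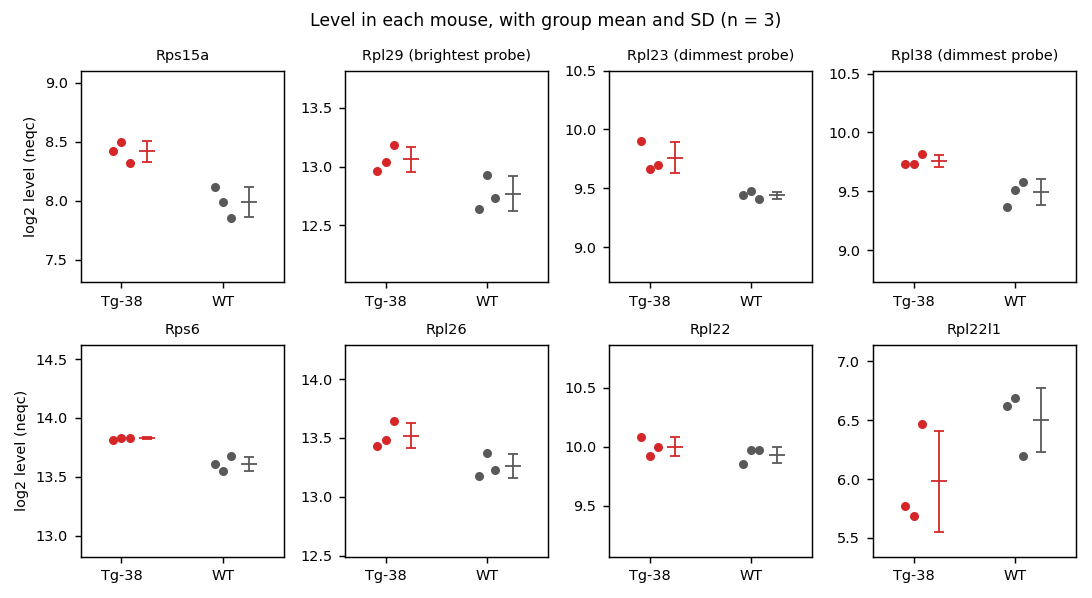
Log2 level (y axis, neqc values) of 8 ribosomal protein probes in each of the 3 Tg-38 and 3 WT mice, with the group mean and SD beside the points. Every panel spans the same number of log2 units, and with this quantile normalization the groups are apart in each panel except those of Rpl22 and Rpl22l1. Rpl23 and Rpl38 are shown by their dimmest probes, while their brightest probes (-0.06 and -0.05) overlapped. The panels were chosen, and of all 79 member probes 21 were apart.

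Several genes were read by more than 1 probe, which gives a measure of how far a single probe can be trusted. The 16 genes with at least 2 tested probes (37 probes) differed between their own probes by a median of 3.78 log2 units in level, from 0.10 to 9.12 (Rps19). Their log2 fold changes differed by a median of 0.16, from 0.01 (Rpl29) to 0.37 (Rpl23), which is more than the members' median change. In 10 genes every probe lay above 0, and in 6 the probes lay on both sides of 0.

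Rpl23, a large subunit protein that in human cells also binds Mdm2, had the widest range. Its dimmest probe stood at 9.90, 9.66 and 9.70 in Tg-38, against 9.44, 9.48 and 9.41 in WT, without overlap. Its brightest probe stood at 14.95, 15.01 and 14.96 in Tg-38, against 15, 15.08 and 15.02 in WT, with overlap. The log2 fold changes were 0.31 and -0.06, with adjusted p of 0.21 and 0.81 in limma. The third probe lay between them at 0.06. With median scaling the dimmest probe had 0.12 and without normalization 0.06.

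Rpl38, which in mouse embryos is needed for the translation of Hox mRNAs, gave the same picture. Its dimmer probe stood at 9.73, 9.73 and 9.82 in Tg-38, against 9.37, 9.51 and 9.58 in WT, and its brighter probe at 14.78, 14.82 and 14.89 in Tg-38, against 14.83, 14.95 and 14.85 in WT. The log2 fold changes were 0.27 and -0.05. In both genes the dim probe separated the groups and the bright probe did not. With median scaling the dimmer Rpl38 probe had 0.09 and without normalization 0.03.

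In Rpl30, a large subunit protein, the order of the probes was the other way round. Its dimmer probe stood at 8.05, 8.24 and 8.04 in Tg-38, against 8.24, 8.28 and 8.33 in WT, a log2 fold change of -0.17 (adjusted p 0.47, limma). Its brighter probe stood at 11.03, 11.05 and 11.33 in Tg-38, against 10.94, 11.04 and 11.19 in WT, a log2 fold change of 0.08. The 3 probes of Rpl21, all dim, gave 0.26, 0.17 and 0.03. The first of them stood at 7.35, 7.30 and 7.29 in Tg-38, against 6.92, 7.16 and 7.06 in WT, and was the only one without overlap (adjusted p 0.27, limma). Rpl7l1, a paralog of Rpl7, had 0.20 on its dimmer probe, at 6.14, 6.19 and 6.0 in Tg-38, against 5.84, 5.94 and 5.94 in WT. On its brighter probe it had -0.04. Rpl28 had 0.16 at a level of 7.50 and 0.00 at 14.27, and Rps24, also mutated in human Diamond-Blackfan anaemia, had 0.13, 0.12 and -0.03 at levels of 7.82, 8.95 and 14.52. Over the 16 genes, the brightest probe had a smaller log2 fold change than the dimmest in 11 and a larger one in 5 (Rpl21, Rpl27a, Rpl30, Rps13 and Rps3).

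The difference between the probes itself, taken in each mouse, was tested in the 6 genes with the widest range by a two-sided exact permutation test, which with 3 against 3 mice cannot go below 0.1. Rpl23 (difference 0.37), Rpl38 (0.32) and Rpl7l1 (0.25) reached p = 0.1 in this exact test, or 0.2 after adjustment over the 6 genes. Rpl30 had 0.26 (exact p = 0.2), Rpl21 had 0.23 (exact p = 0.3) and Rps13 had 0.18 (exact p = 0.7). These genes were picked for a wide range, so the values are a description. The bright probes of Rpl23 and Rpl38 had 95% intervals of -0.29 to 0.17 and -0.28 to 0.18, so their sign is not settled.

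**Figure D4:**
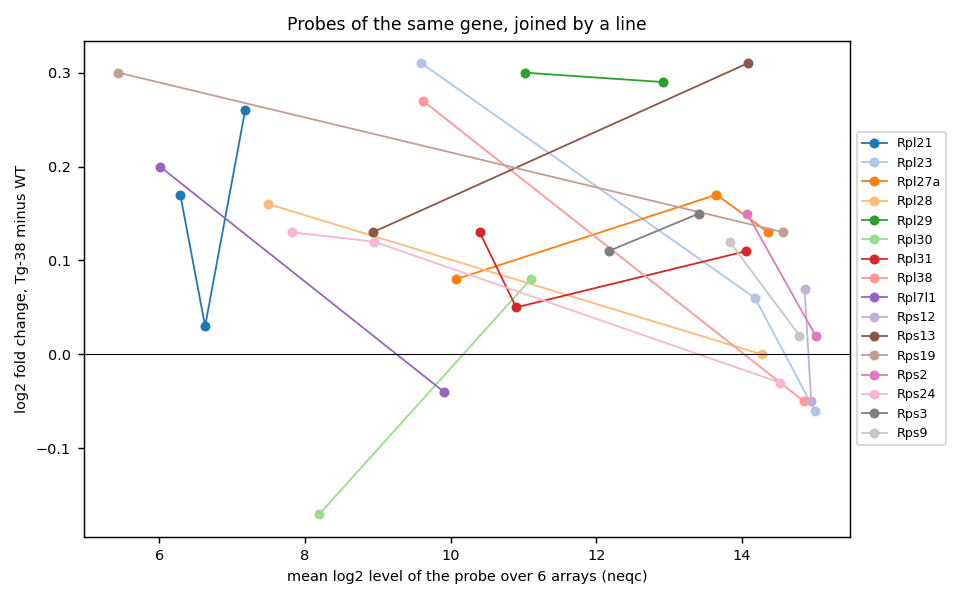
Log2 fold change (Tg-38 minus WT, y axis) against mean log2 level (x axis) for the 37 tested probes of the 16 genes with at least 2 tested probes, with probes of the same gene joined. Lines cross 0 in 6 genes, and Rpl29 is nearly flat at 0.30 and 0.29.

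Members with a pyrimidine run at the annotated start (32 probes of 22 genes) had a median log2 fold change of 0.12, with 28 above 0. Those with a promoter entry and no run (34 probes of 27 genes) had 0.07, with 29 above 0. With median scaling the medians were 0.00 and -0.02. The run is present at Rps15a and at Rpl22l1, the members farthest apart in sign. No run begins within 5 bases of the annotated start at Rpl22 or Rpl23, as printed above. The difference between the medians was not tested.

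The genes that build and serve the ribosome were read from lists, each gene by its brightest probe. None of their members passed the adjusted threshold in limma. Of 36 genes of ribosome biogenesis and RNA polymerase I, 30 were measured, with a median log2 fold change of 0.12 and 23 above 0 (76.7%, against 48.7% of all probes), though with median scaling the median was -0.02 with 14 above 0. At an unadjusted p below 0.05, 6 were higher and 0 lower, where 8.55% and 8.48% of all probes were. Polr1a, the largest subunit of RNA polymerase I, had 10.13, 9.91 and 10.06 in Tg-38, against 9.49, 9.77 and 9.52 in WT. Its log2 fold change was 0.45 (adjusted p 0.12, limma), and that of Rrp12, a factor for the maturation and export of pre-ribosomes, was 0.38. On the lower side stood Rrp1, a factor of rRNA processing (-0.18), and Bms1, a GTPase of 40S assembly (-0.19), neither past the unadjusted level. Of 38 elongation and initiation factors 30 were measured, with a median of 0.04 and 19 above 0 (-0.12 and 6 with median scaling). At the unadjusted level 2 were higher, Eef1e1 of the tRNA synthetase complex (0.46) and Btf3 of the nascent chain complex (0.29), and 1 was lower, Eif4b, the cofactor of the eIF4A helicase (-0.33). Eif3h, next in order, had -0.43 at a low level of 5.97. Of 24 genes of the mTOR and S6 kinase axis 18 were measured, with a median of 0.04 (-0.14 with median scaling). Rps6kl1 had 0.38 and passed the unadjusted level. Larp1, the binder of terminal oligopyrimidine mRNAs (0.28), Rps6kb2, an S6 kinase (-0.33), and Eif4e, the cap-binding factor (-0.32), did not. Rps6kb2 and Eif4e were near background, at levels of 5.09 and 5.83.

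Cell type markers differed between the groups in several lists and are given beside these values. Of 13 markers of CD4+CD8+ thymocytes 11 were measured, with a median log2 fold change of -0.11, 3 above 0 and 0 called, and their summed normalized signal was 65234 to 69199 in Tg-38 and 70944 to 72111 in WT. The probe of Cd8a was not detected. Of 5 markers of mature thymocytes 3 were measured, all above 0 with a median of 0.51, and Il7r, the interleukin 7 receptor, rose (0.97, adjusted p 0.023, limma). Macrophage and dendritic cell markers (8 of 14 measured, median 0.41, Cd86 called) and cytotoxic cell markers (4 of 7, median 0.66, Klrd1 and Nkg7 called) were on the higher side. The other cytotoxic markers measured, Klrb1c and Prf1, had only 0.03 and 0.17, and with median scaling 2 of the 4 lay above 0. The 2 measured erythroid markers had a median of -1.74, with sums of 3821 to 9424 in Tg-38 and 10906 to 25502 in WT, and 0 called. Proliferation markers (5 of 7) had a median of 0.01. The part of these cells in the ribosomal protein values was not tested.

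The members stood above the median of all probes under each of the 19 processing alternatives, by 0.07 to 0.16 log2 units. The methods' t-test, the intensity trend and the block by replicate number leave the fold changes as they are, so these could not differ. The sign of the members against 0 did not hold under all alternatives. With median scaling their median was -0.01 and without normalization it was -0.07. In the authors' processed values it was 0.16. A member passed the adjusted threshold under none of them, where 1 to 480 of all probes did.

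**Figure D5:**
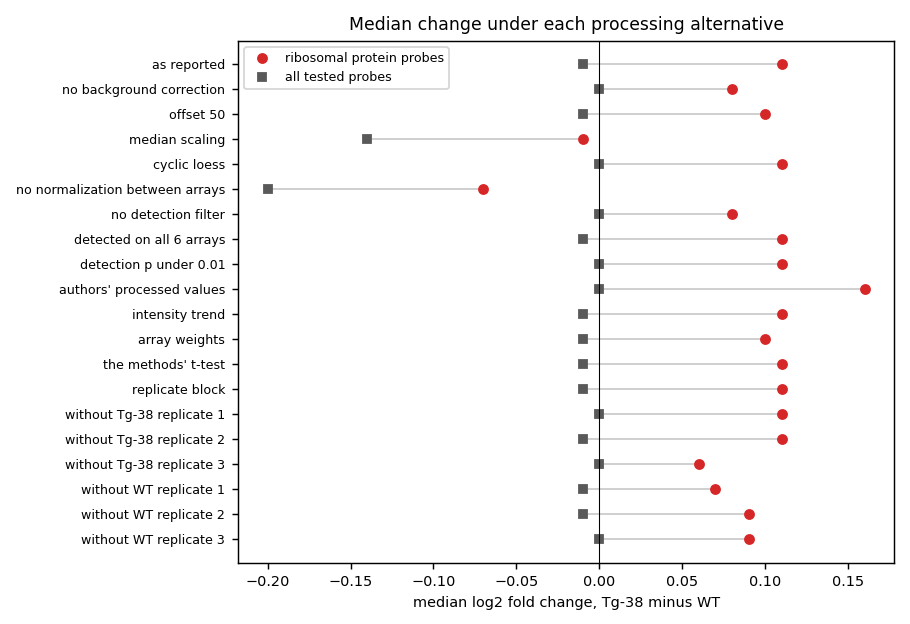
Median log2 fold change (Tg-38 minus WT, x axis) of the ribosomal protein probes (circles) and of all tested probes (squares) under the reported processing and each of 19 alternatives. The circle lies right of its square in every line, and both move left with median scaling (-0.01 and -0.14) and without normalization (-0.07 and -0.20). The lines of the methods' t-test, the intensity trend and the replicate block repeat the reported one by construction.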

How the data were processed

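The authors read the arrays with GenomeStudio. The deposited intensity of a probe is its mean bead signal on a linear scale, without normalization between arrays, and comes with a detection p-value. The authors' own processed intensity values, whose normalization is not given in the sources used here, served as an alternative. The limma function neqc (offset 16) removed the background, estimated from the detection p-values, applied quantile normalization and gave log2 values, which were fitted with lmFit and eBayes in limma 3.58.1 (R 4.3.3, statmod 1.5.0) on 3 Tg-38 and 3 WT arrays, two-sided, with Benjamini-Hochberg adjustment over 18352 probes (residual degrees of freedom 4, prior 4.96). The fit was tested on simulated data. The methods name a t-test, which was run as an alternative. Further alternatives covered the background correction, the normalization, the detection filter, weights per array, an intensity trend, a block by replicate number and each array left out. The class and list medians and the counts without overlap under other scalings were added after seeing the data. The number of arrays limits the precision.

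Of 45281 probes, 34885 are annotated to 1 gene, 18 to several and 10378 to none. Members and lists were chosen with earlier results of these data known. Named members were the 10 higher and 10 lower genes with the smallest p, the 6 widest by level and by change between probes, and members with known separate roles. From each neighbouring list the 2 genes per direction with the smallest p were named. Cell type lists are given by counts and sums, with the called markers named, and for cytotoxic cells also the other measured markers. Those of double negative thymocytes (6 of 7 measured, median 0.18), thymic epithelium (5 of 8, median 0.44), B cells (1 of 5, -0.54) and fibroblasts (2 of 7, median 0.85, Acta2 called) are given here only. Figures were drawn with matplotlib 3.10.9.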

Additional observations from a re-analysis of the deposited data

How the results depend on the processing

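The count of members passing the adjusted threshold was 0 under every alternative run. Over all probes 1.10% were called in the reported fit and only 1 probe with the methods' t-test. With so few calls, a count of 0 among 79 members says little about them. The lowest adjusted p of a member was 0.056 (Rps15a, without background correction, limma), with a range up to 0.28 over the alternatives. The members' median log2 fold change of 0.11 was 0.08 without background correction, 0.08 without the detection filter, 0.16 in the authors' processed values, 0.07 by the brightest probe of each gene, -0.01 with median scaling and -0.07 without normalization between arrays, and 0.06 to 0.11 with each array left out. The 28 named members had 525 values under the alternatives, of which 0 crossed the threshold. Their sizes did shift, in some by more than the standard error. Without normalization Rps15a had 0.20, against 0.43 (standard error 0.12), and Rpl26 had 0.05, against 0.26 (standard error 0.11).

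Over all probes 202 were called. The count was 397 without background correction, 446 with an offset of 50, 48 without the detection filter, 45 in the authors' processed values, 480 with an intensity trend, 1 with the methods' t-test, and 20 to 275 with each array left out. The higher share of these calls was 72.8%, against 35.9% with median scaling and 23.1% without normalization. The causes were not tested.

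Replicate numbers are shared by the titles of the groups. Deviations of same-numbered mice from their group means had correlations of 0.03, -0.12 and -0.10. Those of differently numbered mice had -0.12 to 0.19. With 3 mice per group these values cannot show whether the numbers pair the mice. With the replicate number as a block 29 probes were called over all and 0 members. In this balanced design the block leaves the fold changes themselves as they are.

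Near background, as for Rpl22l1, Rpsa and the dim Rps19 probe, the size of a difference depends on the background correction (Rpl22l1 -0.52, against -0.21 without it).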
